A study of Mus musculus with 6 samples.

Results

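Interleukin (IL)-12 and IL-18 are the cytokines through which macrophages and dendritic cells call on natural killer cells (NKC) to release interferon gamma. The axis was described here through 10 genes: the IL-12 receptor chains Il12rb1 and Il12rb2, the kinase Tyk2 and the transcription factor Stat4, the IL-18 receptor chains Il18r1 and Il18rap, the cytokine Il18 itself, Ifng, which encodes interferon gamma, and the chains of its receptor, Ifngr1 and Ifngr2. They were found by gene symbol, through every probe set whose only listed symbol was one of them, which gave 13 probe sets for the 10 genes out of 34945 probe sets for 18193 genes. A probe set is the group of short oligonucleotides that reads 1 transcript on the array. Of these, 9 genes and 10 probe sets had a log2 signal of at least 5, used here as the background level, on at least 1 array and were tested, beside 9545 genes and 16521 probe sets in all. Which transcripts of resting NKC depend on Runx3 is the question the study put to these arrays.

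The cells came from spleens of Runx3-/- ICR mice, which lack the transcription factor Runx3, and of wild type (WT) ICR mice, all 6 weeks old, with 3 arrays in each group. NKC were enriched by negative selection, sorted as DX5+ cells and not stimulated. DX5 (CD49b) is also carried by basophils and some other blood cells. Per the design the mice were sampled one by one, yet all 6 sex labels read male and female. The sources used here name no promoter or cell type for the deletion, so what Runx3-/- mice lack elsewhere, in macrophages or in the cells that feed NKC, cannot be told apart from what the NKC lack.

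IL-12 binds a receptor of Il12rb1 and Il12rb2, which carry the kinases Tyk2 and Jak2 and activate Stat4. IL-18 is held as a precursor that caspase-1 cleaves, and it binds Il18r1, which then recruits Il18rap and signals through MyD88 and the IRAK kinases to NF-kappaB. Resting NKC already express both receptors and hold Ifng transcripts ready, and the cytokines together induce far more interferon gamma than either does alone. Interferon gamma acts in turn through Ifngr1, which binds it, and Ifngr2, which carries Jak2 to the complex.

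Between 37.9% and 39.4% of probe sets per array lay at log2 5 or more, and arrays correlated at 0.950 to 0.974 within groups and 0.925 to 0.960 between them, over genes, which are not independent replicates. Runx3 was 7.76, 8.51 and 8.68 in Runx3-/- and 10.11, 11.56 and 10.73 in WT on its brighter probe set, 5.59-fold lower in Runx3-/- (limma adjusted p = 0.0565). All 14 tested NKC markers were at log2 5 or more on every array. The mean log2 signal of basophil and mast cell markers was higher in every Runx3-/- array (10.16 to 11.09) than in every WT array (8.79 to 9.35), and so was that of type 1 innate lymphoid cell markers (8.71 to 8.95 in Runx3-/- and 7.39 to 7.79 in WT). Markers of macrophages and monocytes spread widely in Runx3-/- (5.03 to 9.17) and little in WT (6.36 to 6.57). All 10 tested markers of B cells and plasma cells had a higher mean in Runx3-/-, 4 of them by 1.5-fold or more with an unadjusted p under 0.05, and their mean signal was 6.72 to 7.83 in Runx3-/- and 5.68 to 6.80 in WT. Over all tested genes, 13.8% met that fold and p in either direction. In RNA of a whole sorted sample, fewer cells of a type and less RNA per cell cannot be told apart.

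No gene of the axis passed the Benjamini-Hochberg (BH) 5% threshold in the limma fit over 9545 genes, of which 58, or 0.608%, did. Adjusted p-values of the 9 tested genes ran from 0.343 to 0.983. None had an unadjusted p under 0.05, which 1531 of all genes had, so none met the looser criterion of the study (unadjusted p under 0.05 and 1.5-fold or more, here called the study's thresholds), which 13.8% of all genes met (467 higher and 846 lower in Runx3-/-). The mean was higher in Runx3-/- for 5 genes and lower for 4. Their median log2 change was 0.06, against -0.13 over all tested genes. The estimated change reached 1.5-fold for 3 genes: Il18rap was higher, and Il12rb2 and Ifngr1 were lower, each with a 95% interval that held 0.

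**Figure D1:**
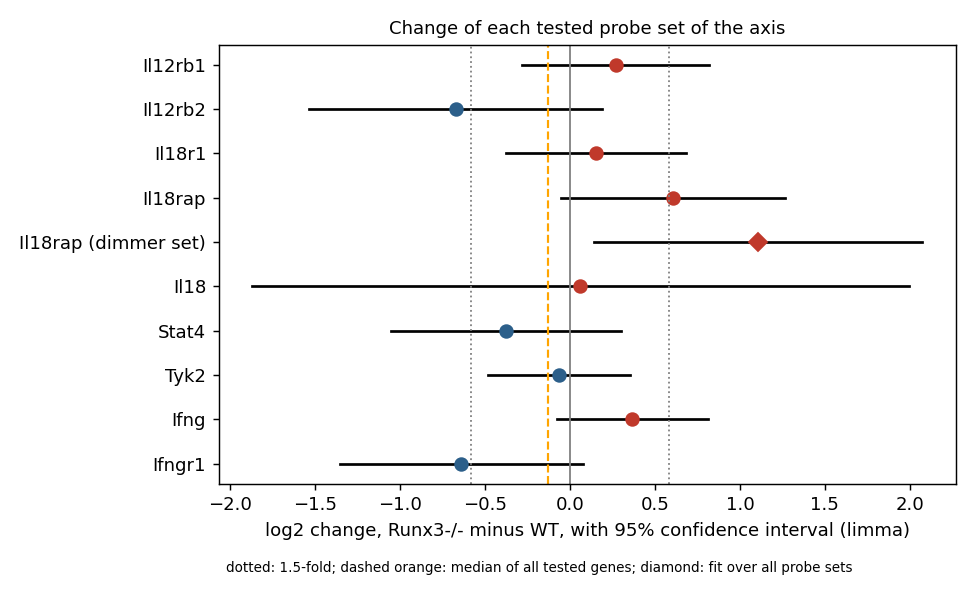
Log2 change (Runx3-/- minus WT, horizontal axis) of the 10 tested probe sets of the axis, with 95% confidence intervals from limma, n = 3 arrays per group. Red marks lie above 0 and blue below, the diamond is the dimmer Il18rap probe set from the fit over all probe sets, dotted lines mark 1.5-fold and the dashed orange line the median of all tested genes, -0.13; only the interval of the diamond (0.14 to 2.07) leaves out 0.

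Il18rap, the accessory chain without which the receptor does not signal, was read by a pair of probe sets. The brighter one was 13.81, 14.00 and 13.59 in Runx3-/- and 13.76, 12.94 and 12.90 in WT. WT replicate 1 lay among the Runx3-/- arrays, and the other WT arrays lay below all of them. The means were 13.80 ± 0.21 in Runx3-/- and 13.20 ± 0.48 in WT (SD, n = 3 each), a log2 change of 0.60 (95% interval -0.06 to 1.26, 1.52-fold, limma adjusted p = 0.343).

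The dimmer Il18rap probe set had the same arrangement with wider steps. It was 11.74, 12.32 and 11.83 in Runx3-/- and 11.77, 10.59 and 10.22 in WT, and again WT replicate 1 was at the level of the Runx3-/- arrays. In the fit over all 16521 probe sets its log2 change was 1.11 (0.14 to 2.07, 2.15-fold, limma adjusted p = 0.298). It was the 1 member probe set of 10 at the study's thresholds in either direction. Of all 16521 probe sets, 858 (5.19%) met them on the higher side and 1265 on the lower side. None of the 10 passed BH 5%, which 0.0847% of all probe sets did (limma), and 2367 of all probe sets had an unadjusted p under 0.05. The change was 0.50 log2 larger on the dimmer probe set than on the brighter one, a difference that the arrays do not resolve (exact permutation test, p = 0.2, smallest possible 0.1 over 20 assignments).

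Single arrays moved the Il18rap estimate both ways. Without WT replicate 1 the log2 change was 0.88 on the brighter probe set (adjusted p = 0.114) and 1.56 on the dimmer one (adjusted p = 0.0683), and both met the study's thresholds. Without WT replicate 3 it was 0.46 on the brighter probe set and 0.79 on the dimmer one. The dimmer probe set no longer met the study's thresholds without Runx3-/- replicate 2 or 3 or without WT replicate 2 or 3. Nor did it with no filter on level, or with values under log2 5 raised to 5. Basophils, mast cells and type 1 innate lymphoid cells also carry the IL-18 receptor. Of the 15 tested basophil and mast cell markers 10 were higher in Runx3-/- at the study's thresholds, 0 were lower, and Il3ra, Tpsab1 and Mcpt4 were under log2 5 on every array. For type 1 innate lymphoid cells these were 6 and 0 of 9 markers. Over all tested genes, 13.8% met these thresholds in either direction. In WT replicate 1 Il18rap was at the Runx3-/- level. There the means of the basophil and mast cell list (9.21) and the type 1 innate lymphoid cell list (7.39) lay below those of every Runx3-/- array. Other lists were arranged otherwise. The mean of the 2 tested type 2 innate lymphoid cell markers was 11.75, 12.57 and 12.24 in Runx3-/- and 12.37, 11.30 and 11.75 in WT. That of B cell and plasma cell markers was 6.80 in WT replicate 1 and 6.72 to 7.83 in Runx3-/-. The part of these cells in the Il18rap values was not tested.

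**Figure D2:**
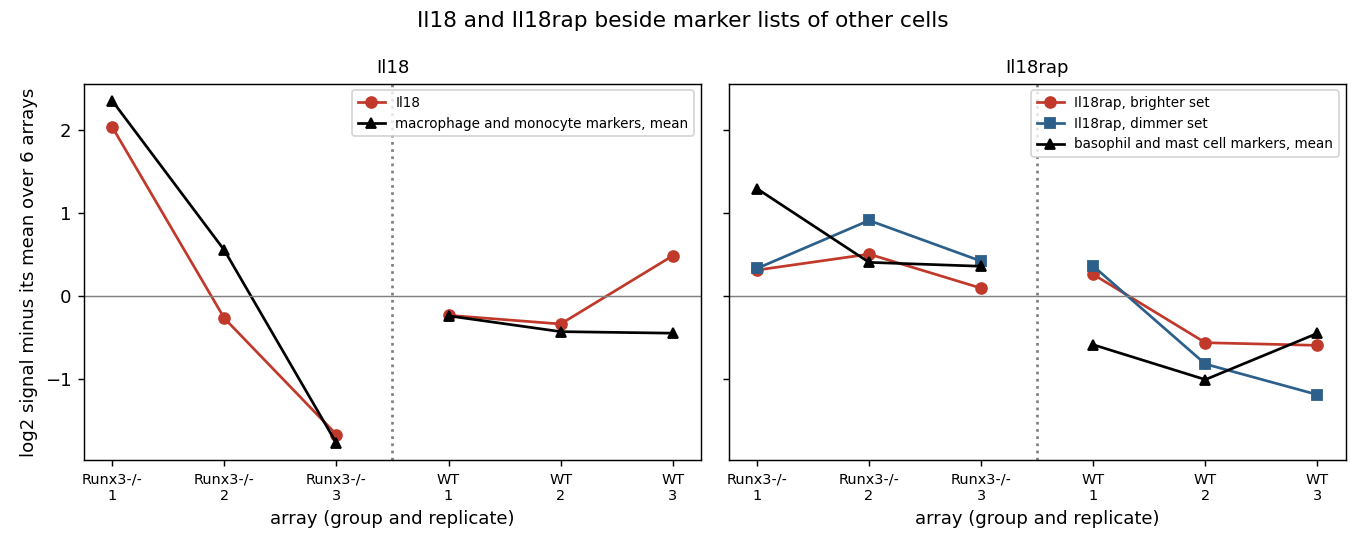
Log2 signal minus its mean over the 6 arrays (vertical axis) for Il18 with the macrophage and monocyte markers (left panel) and for both Il18rap probe sets with the basophil and mast cell markers (right panel), by array, Runx3-/- left of the dotted line and WT right of it. Il18 and the macrophage mean are highest in Runx3-/- replicate 1 and lowest in Runx3-/- replicate 3, and Il18rap in WT replicate 1 lies at the Runx3-/- level while the basophil and mast cell mean does not.

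Il18r1, the chain that binds IL-18, is the gene next to Il18rap on chromosome 1 in the RefSeq annotation (assembly GRCm38.p6). It was 12.27, 12.44 and 12.41 in Runx3-/- and 12.54, 12.24 and 11.89 in WT. The Runx3-/- arrays lay within the WT range. The log2 change was 0.15 (-0.37 to 0.68, adjusted p = 0.764), so that changes beyond 1.60-fold higher or 1.30-fold lower fell outside the interval. Without WT replicate 3 it was -0.01.

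The promoters of this gene pair and of Ifng are shown because Runx3 binds DNA through the RUNX motif, here searched on both strands, with overlapping matches kept, in its 4 forms that differ in a middle and an end letter. Windows of 300 bases, 250 before and 50 after a start, held TGTGGT in 16.8% of all 32851 listed windows, and 18.9% of windows held TGTGGC. The form TGCGGT was in 6.5% of windows and 12.4% held the form TGCGGC, and 45.2% of windows held at least 1 of the 4. Il18rap was chosen as the gene with a probe set at the study's thresholds, and Il18r1 and Ifng after their values were seen. The study found many Runx3-bound regions of resting NKC far from gene starts, and such regions were not searched. A match in a window, or the lack of one, therefore does not show whether Runx3 binds the gene. The sequences are from RefSeq (GRCm38.p6), 5′ to 3′ on the plus strand, which is the strand of all 3 genes, with motif letters in capitals. For Il18rap the 250 bases before the start, chr1:40515112-40515361, hold none of the forms, and a match to the first form on the minus strand (in capitals) lies at position 32 after the start, shown with its neighbours, chr1:40515385-40515406.
Il18rap before the start: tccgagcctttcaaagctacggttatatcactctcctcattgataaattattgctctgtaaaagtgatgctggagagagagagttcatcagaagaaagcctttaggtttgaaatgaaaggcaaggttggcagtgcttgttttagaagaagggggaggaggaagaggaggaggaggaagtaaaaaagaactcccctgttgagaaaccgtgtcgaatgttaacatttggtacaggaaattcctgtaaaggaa
Il18rap after the start: taaacctaACCACAaccccttt
For Il18r1 the 250 bases before its first listed start, chr1:40465302-40465551, hold 1 match to the second form, at position -79, where -1 is the last base before the start. Of its other listed starts, the second has 3 matches in its window, at positions -148, -10 and 22, and the third has none.
Il18r1 before the start: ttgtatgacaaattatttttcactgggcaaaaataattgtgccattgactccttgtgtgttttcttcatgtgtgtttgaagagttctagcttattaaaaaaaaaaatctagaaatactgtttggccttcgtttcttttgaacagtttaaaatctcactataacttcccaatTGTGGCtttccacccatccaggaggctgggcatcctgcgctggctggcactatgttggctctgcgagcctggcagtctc
For Ifng the 250 bases before the start, chr10:118440796-118441045, hold 1 match to the second form on the minus strand, at position -158.
Ifng before the start: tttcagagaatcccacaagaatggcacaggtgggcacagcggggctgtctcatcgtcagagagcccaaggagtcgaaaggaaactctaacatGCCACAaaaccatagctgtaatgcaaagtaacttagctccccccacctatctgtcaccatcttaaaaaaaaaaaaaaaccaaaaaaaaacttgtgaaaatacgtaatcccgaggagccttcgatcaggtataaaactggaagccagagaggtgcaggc
Windows were listed for 9 of the 10 genes, and 9 of their 12 windows held at least 1 of the forms. The window of Ifngr1, 1 of those of Stat4 and 1 of those of Il18r1 held none, and that of Il12rb2 held 3 matches, at positions -161, -115 and -35.

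Il18, the cytokine, was the member with the widest spread. It was 8.58, 6.27 and 4.87 in Runx3-/- and 6.30, 6.20 and 7.02 in WT. Runx3-/- replicate 1 was above every WT array, replicate 3 was below every WT array and under log2 5, and the means were close, at 6.57 ± 1.87 in Runx3-/- and 6.51 ± 0.45 in WT (SD, n = 3 each). The log2 change of 0.06 had an interval of -1.87 to 1.99 (adjusted p = 0.983), and it was -0.94 without Runx3-/- replicate 1. IL-18 is made chiefly by macrophages and other myeloid and epithelial cells. The mean of 12 macrophage and monocyte markers was 9.17, 7.36 and 5.03 in the same Runx3-/- arrays and 6.57, 6.38 and 6.36 in the WT arrays. Csf1r, the receptor for a macrophage growth factor, was 12.19, 10.03 and 5.85 in Runx3-/- and 9.56, 9.32 and 8.79 in WT. Of the 12 markers 2, Adgre1 and Cd14, were higher in Runx3-/- at the study's thresholds and 0 were lower, beside 13.8% of all tested genes in either direction. Cd14 reached log2 5 on 1 array only, and was 1.16-fold higher with values under log2 5 raised to 5. The part of macrophage RNA in the Il18 values was not tested.

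The IL-12 receptor chains went opposite ways without either passing a threshold. Il12rb1, which binds the p40 subunit that IL-12 shares with IL-23, was 7.69, 7.57 and 7.89 in Runx3-/- and 7.21, 7.84 and 7.30 in WT. WT replicate 2 lay within the Runx3-/- range and the other WT arrays below it. The log2 change was 0.27 (-0.28 to 0.82, adjusted p = 0.599). Il12rb2, the chain particular to IL-12 and the one that docks Stat4, was 6.13, 6.81 and 7.25 in Runx3-/- and 7.61, 6.80 and 7.80 in WT. Here WT replicate 2 fell among the Runx3-/- arrays and the other WT arrays were above all of them. The log2 change was -0.67 (-1.54 to 0.19, 1.59-fold lower, limma adjusted p = 0.407), and the value rested on single arrays. It met the study's thresholds without WT replicate 2 (-0.97) or Runx3-/- replicate 3 (-0.93), and was -0.37 without Runx3-/- replicate 1 and -0.28 with array weights.

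Behind the IL-12 receptor, Tyk2 was the steadiest member. Its brighter probe set was 11.23, 11.26 and 11.15 in Runx3-/- and 11.34, 11.22 and 11.28 in WT, and the groups overlapped. The log2 change was -0.06 (-0.48 to 0.35), an interval that leaves out changes beyond 1.40-fold lower or 1.28-fold higher, and it turned to 0.0089 with quantile normalization and to 0.06 with each array centred on the median of the tested genes. The other Tyk2 probe set was under log2 5 on all arrays. Stat4, the factor through which IL-12 raises Ifng, was 12.75, 12.44 and 12.17 in Runx3-/- and 13.17, 13.02 and 12.30 in WT. The groups overlapped through WT replicate 3, and the log2 change was -0.38 (-1.05 to 0.30, adjusted p = 0.545). Without WT replicate 3 it was -0.64 and met the study's thresholds, while it was -0.20 without WT replicate 1 and -0.23 without Runx3-/- replicate 3.

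Ifng, the output of both cytokines, differed little in size but did not overlap between groups. It was 10.13, 10.15 and 10.18 in Runx3-/- and 9.77, 9.96 and 9.62 in WT. Every Runx3-/- array was above every WT array, and the Runx3-/- arrays lay closer together (SD 0.02) than those of WT (SD 0.17). The log2 change was 0.37 (-0.08 to 0.81, 1.29-fold, limma adjusted p = 0.385). Among the 9 tested genes this was the 1 without overlap, as 22.8% of all tested genes were, 5.98% with the higher values in Runx3-/-. Interferon gamma is also made by type 1 innate lymphoid cells, whose markers averaged 8.71 to 8.95 in Runx3-/- and 7.39 to 7.79 in WT, and by T cells, whose 6 tested markers averaged 7.95 to 8.71 in Runx3-/- and 7.94 to 8.80 in WT, with Cd4, Cd8a, Cd8b1, Cd6 and Themis under log2 5 on every array. The part of these cells in the Ifng values was not tested.

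**Figure D3:**
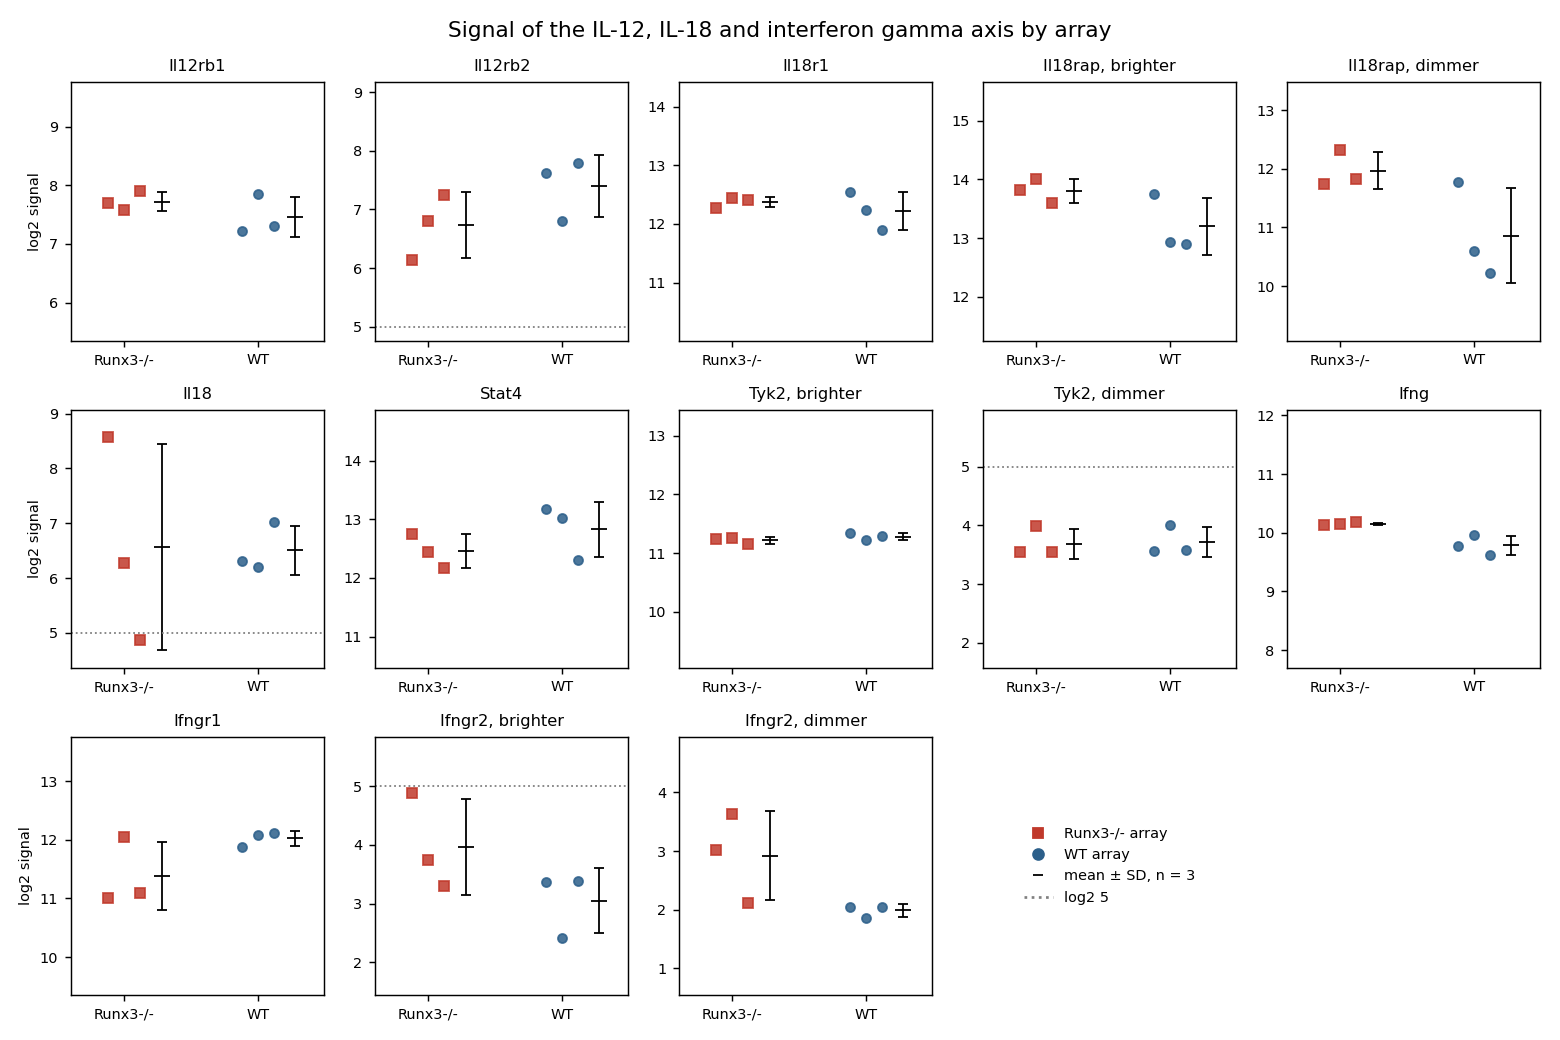
Log2 signal (vertical axes, of nearly equal span) of all 13 probe sets of the axis on the 3 Runx3-/- arrays (red squares) and the 3 WT arrays (blue circles), with the mean ± SD of each group, n = 3. The dotted line marks log2 5; Ifng is the tested gene whose groups do not overlap, and Ifngr2 stays below the line on all arrays.

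Of the interferon gamma receptor, Ifngr1 was 11.00, 12.05 and 11.09 in Runx3-/- and 11.88, 12.08 and 12.11 in WT. Runx3-/- replicate 2 was at the WT level and the other Runx3-/- arrays were below every WT array. The log2 change was -0.64 (-1.35 to 0.08, 1.56-fold lower, limma adjusted p = 0.351). Without Runx3-/- replicate 2 it was -0.98 and met the study's thresholds, while leaving out Runx3-/- replicate 1 gave -0.45 and leaving out replicate 3 gave -0.49. Ifngr2 was under log2 5 on all arrays in both of its probe sets (2.12 to 4.88 in Runx3-/- and 1.87 to 3.38 in WT), so no change is given for it.

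The arrays were also compared after centring each on the median of the tested genes, which moved the median change of all genes to -0.01. On that scale the log2 change was 0.73 for Il18rap, 0.49 for Ifng, 0.39 for Il12rb1, 0.27 for Il18r1 and 0.18 for Il18. It was -0.55 for Il12rb2, -0.52 for Ifngr1 and -0.25 for Stat4. Il18rap then met the study's thresholds on its brighter probe set (adjusted p = 0.331), and the split of genes at those thresholds was 627 higher and 497 lower in Runx3-/-.

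The rest of the pathway was read through 7 lists, named by the genes in them that met the study's thresholds, and any other gene was picked after its values were seen. Other probe sets of list genes are given only where they were at log2 5 or more on every array. Counts at the study's thresholds stand beside 13.8% of all tested genes, 467 higher and 846 lower in Runx3-/-. Of the ligands, processing enzymes and antagonists of both cytokine families, 5 of 13 genes were tested and 0 met the study's thresholds, with a median log2 change of 0.10. Il12a and Il12b, the subunits of IL-12, and Il18bp, the soluble inhibitor of IL-18, were under log2 5 on every array. Casp1, the protease that activates IL-18, was 10.38, 10.21 and 10.03 in Runx3-/- and 10.41, 9.07 and 8.98 in WT, so that WT replicate 1 again stood with the Runx3-/- arrays (log2 change 0.72, adjusted p = 0.401). The other receptors of these families had 5 tested genes of 10, 0 at the thresholds and a median of -0.24. Il23r and Il1rl1 were not analysed here.

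Of 19 tested genes of 22 that carry the IL-18 signal from MyD88, 2 were higher in Runx3-/- at the study's thresholds and 0 were lower, beside 13.8% of all tested genes in either direction. None passed BH 5%, and the median was -0.03. Irak3, known from macrophages as a brake on this pathway, was 9.51, 8.16 and 8.43 in Runx3-/- and 7.47, 7.19 and 7.87 in WT (2.28-fold higher, limma adjusted p = 0.205). Gadd45g, which activates the kinase Map3k4 and through it p38, was 8.56, 8.23 and 8.09 in Runx3-/- and 7.05, 7.79 and 7.61 in WT (1.75-fold higher, adjusted p = 0.211). Neither gene overlapped between groups, as was so for 3 of the 19 tested genes and for 22.8% of all tested genes. The third, Irak1, was lower in Runx3-/- on its brightest probe set (log2 change -0.55, limma adjusted p = 0.267). Its other probe sets gave smaller changes of -0.06, -0.19 and -0.33, none at the study's thresholds. Myd88 itself had a log2 change of -0.03 (adjusted p = 0.964). Dimmer probe sets of the tested genes gave further changes. For Ikbkg the log2 change was 0.13 on the brightest probe set and -0.54, -0.88 and -1.08 on others. For Map3k4 it was -0.40 and then -0.49, -0.63 and -1.07, and for Mapk14 -0.14 and then 0.01 and 0.83. Those of -0.63, -0.88, -1.07, -1.08 and 0.83 met the study's thresholds in the fit over all probe sets. None of them passed BH 5% (limma).

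Of the kinases, STATs and inhibitors that serve IL-12 and interferon gamma, 12 of 14 genes were tested, with a median of 0.00. By those thresholds 2 were higher and 1 was lower, beside 13.8% of all tested genes in either direction. Cish, a feedback inhibitor of cytokine receptors, was 8.20, 8.35 and 7.88 in Runx3-/- and 6.56, 7.31 and 7.12 in WT (2.21-fold higher, limma adjusted p = 0.126). Socs2, of the same family, was 1.76-fold higher (adjusted p = 0.263), with a log2 change of 0.22 on its other probe set. Ptpn6, which encodes the phosphatase SHP-1 that inhibitory NKC receptors recruit, was 11.91, 11.56 and 12.04 in Runx3-/- and 12.73, 12.88 and 12.97 in WT. It was 2.03-fold lower in Runx3-/- (adjusted p = 0.101), and its other probe set had a log2 change of -0.80. Socs1 was under log2 5 on every array.

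Among transcription factors that act on the Ifng gene, 16 of 19 were tested, with a median of 0.02. By those thresholds 1 was higher and 3 were lower, Runx3 itself among the 3, beside 13.8% of all tested genes in either direction. Runx1, a relative of Runx3 with the same binding motif, was 11.90, 10.97 and 10.77 in Runx3-/- and 10.35, 10.38 and 10.44 in WT (1.77-fold higher, limma adjusted p = 0.263), and its 3 other probe sets had log2 changes of 1.29 to 1.37. Eomes, a T-box factor of mature NKC, was 13.00, 13.40 and 12.99 in Runx3-/- and 13.71, 13.81 and 13.99 in WT (1.63-fold lower, adjusted p = 0.185), and its other probe set gave -0.77. Nfatc2, a calcium-regulated factor, was 1.72-fold lower with overlapping groups (adjusted p = 0.264). Tbx21, the other T-box factor, had a log2 change of 0.17 (adjusted p = 0.709). Zeb2 had a log2 change of 0.84 on its brightest probe set, with overlapping groups (limma adjusted p = 0.506). Its other probe sets gave 1.18, 1.53 and 1.59. Those of 1.18 and 1.53 met the study's thresholds in the fit over all probe sets, and none passed BH 5% (limma).

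Of genes that interferon gamma induces, 21 of 29 were tested, with 3 higher in Runx3-/- by those thresholds, 0 lower, 1 past BH 5% and a median of 0.15. The share at those thresholds was thus near that of all tested genes, 13.8% in either direction. The 3 higher genes all encode interferon-inducible GTPases that act on vacuoles of intracellular microbes. Iigp1 rose to 5.69, 6.55 and 5.14 in Runx3-/-, against 3.30, 3.26 and 2.82 in WT, which is below background, and passed in the fit of the values as deposited (limma adjusted p = 0.0373). With values under log2 5 raised to 5 it was at least 1.73-fold higher, and in the fit of such values 0 of all genes passed BH 5%. Gbp6 was 9.47, 9.70 and 9.68 in Runx3-/- and 8.58, 7.26 and 6.94 in WT (4.06-fold higher, adjusted p = 0.0954), and Igtp was 1.93-fold higher (adjusted p = 0.178). Irf1, a transcription factor among its early targets, had a log2 change of 0.06 (adjusted p = 0.906). B cells and macrophages also respond to interferon gamma. The mean of B cell and plasma cell markers was 6.72 to 7.83 in Runx3-/- and 5.68 to 6.80 in WT. That of macrophage and monocyte markers was 5.03 to 9.17 in Runx3-/- and 6.36 to 6.57 in WT. The part of these cells in the values was not tested.

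Other cytokines and chemokines that NKC release with interferon gamma had 6 tested genes of 11 and 0 at the study's thresholds, with a median of -0.26. Xcl1, the chemokine for cross-presenting dendritic cells, was 10.02, 9.41 and 10.55 in Runx3-/- and 10.28, 10.90 and 11.40 in WT (log2 change -0.87, limma adjusted p = 0.315). Ccl3, a chemokine for monocytes, was 12.69, 11.32 and 11.75 in Runx3-/- and 10.87, 10.52 and 11.77 in WT (0.87, adjusted p = 0.374). In both, the groups overlapped. Tnf, Lta, Il10, Il13 and Il2 were under log2 5 on all arrays.

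**Figure D4:**
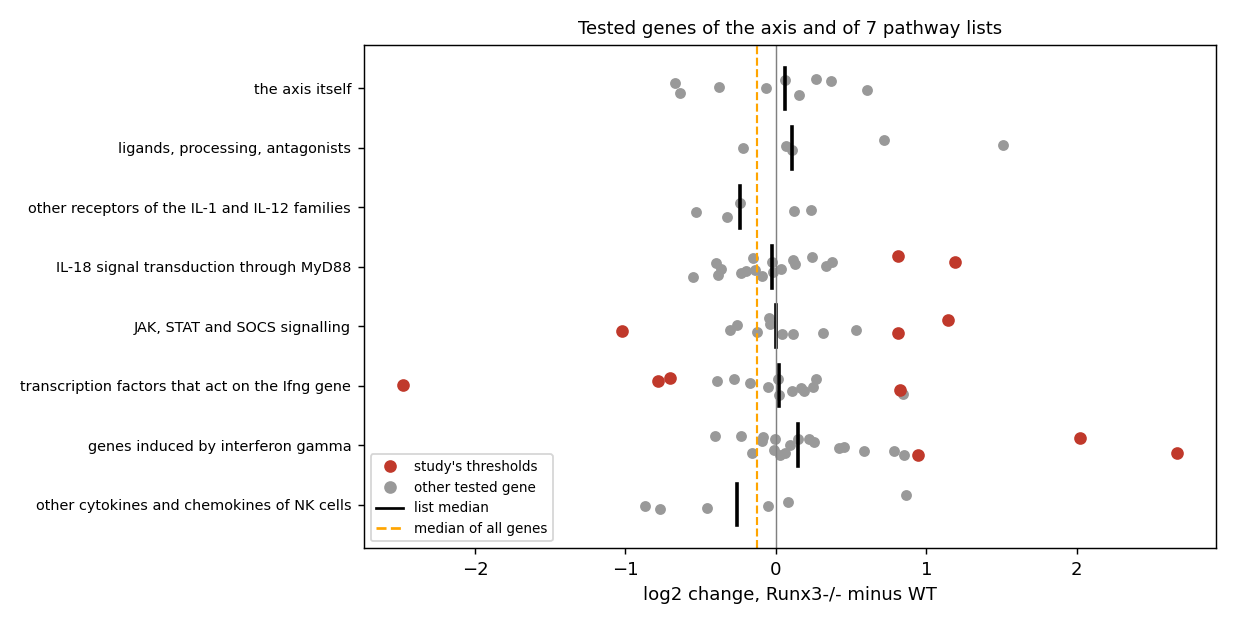
Fitted log2 change (Runx3-/- minus WT, horizontal axis) of every tested gene of the axis and of the 7 pathway lists, 1 row each, with red points at the study's thresholds, grey points for other tested genes, black bars for list medians and the dashed orange line for the median of all tested genes, -0.13. The row of the axis holds no red point, and the red point furthest right is Iigp1, whose WT values are below background.

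Genes were also picked for profiles over the 6 arrays most like those of Il18rap. By that choice they share its arrangement, with WT replicate 1 at or near the Runx3-/- arrays. Likeness was the mean absolute difference of centred log2 profiles, over 9544 genes and the same 6 libraries. For the brighter probe set these were Rhoc (0.0514), Ergic2 (0.0536), a protein of the early secretory path, and Csgalnact2 (0.0724), an enzyme of chondroitin sulfate synthesis. For the dimmer probe set they were Scaf8 (0.136), Fcho2 (0.144), a protein of clathrin-coated pits, and Mysm1 (0.154), a histone H2A deubiquitinase. Rhoc was 8.90, 9.24 and 8.63 in Runx3-/- and 8.87, 8.05 and 8.08 in WT.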

How the data were processed

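Total RNA of DX5+ splenic NKC was labelled and hybridised to Affymetrix mouse arrays, 1 per sample. The labels and the methods name different labelling kits. GC-RMA in Partek was run by the authors, with no version given, and the deposited values are log2 signals of 45101 probe sets on 6 arrays. GC-RMA corrects for base content and equalises the arrays, so a change in total RNA per cell cannot be seen. The number of arrays limits precision, and p-values measure only the spread between these samples.

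Platform annotation gave 1 symbol for 34945 probe sets, several for 932 and none listed for 9160, and 64 were controls. By gene identifier 34741 matched the RefSeq table of GRCm38.p6, and 0 symbols differed. No build is named for the array. Each gene was read by its brightest probe set on average, and those at log2 5 or more on at least 1 array were tested. No source used here gives the study's background level.

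The groups were compared in R 4.3.3 with limma 3.58.1 (lmFit and eBayes, a two-sided test) on all 6 arrays, with Benjamini-Hochberg adjustment over all genes or all probe sets tested. The study names no exact test. The fit was tested on simulated data. Probe sets of Il18rap were compared by an exact permutation test. The text names all members, Runx3, up to 4 genes per list at the study's thresholds, the 3 genes nearest to Il18rap, and genes said to be picked later. Members and lists were chosen with earlier results of these data known. Alternatives covered filter, scaling, floor, choice of probe set, moderation, array weights, replicate block and leaving out arrays. No array duplicated another.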

Additional observations from a re-analysis of the deposited data

How the results depend on the processing

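No member gene passed BH 5% under any of the 18 alternatives (smallest adjusted p 0.0683, the dimmer Il18rap probe set without WT replicate 1). Ifng, Ifngr1, Il12rb1, Il12rb2, Il18rap and Stat4 kept their direction in all 18. Tyk2 turned to 0.0089 with quantile normalization and 0.057 with arrays centred on the median of tested genes, a setting chosen after seeing the data. Il18 turned to -0.44 with array weights and ran from -0.94 to 0.91 as arrays were left out in turn, and Il18r1 from -0.014 to 0.31. The number of member genes at the study's thresholds, 0, became 1 (Il18rap) with quantile normalization, every probe set, the mean of probe sets, array weights or tested-gene centring, 2 (Il18rap and Ifngr1) with trend and robust options, and 0 to 1 as arrays were left out.

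Over all genes, the 58 past BH 5% became 1 with no filter, 0 with values under log2 5 raised to 5, 14 with every probe set, 12 with the mean of probe sets and 203 with array weights, and 0 to 130 as arrays were left out, 130 without WT replicate 1 and 0 without any other. The 467 higher at the study's thresholds became 264 with the floor and 858 with every probe set. The 846 lower became 497 with tested-gene centring and 552 to 1214 as arrays were left out. Deviations of same-numbered arrays had r of 0.07, -0.19 and 0.15, and those of differently numbered arrays ranged from -0.27 to 0.22. Whether same-numbered arrays share more than a number cannot be told from these values. With the number as a replicate block 0 genes passed BH 5%. The cause of these shifts was not tested. With 3 arrays a group, the 95% interval of every tested member gene held 0.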
